A study of Mus musculus with 3 samples.

Results

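The genes described here carry glucose into the cell, break it down to pyruvate and lactate, admit pyruvate to the mitochondrion and store glucose as glycogen. The list holds 37 genes of these pathways, and it was drawn up with earlier results of these data known. A gene was measured where the platform annotation gave a probe that gene alone, under its current or an older symbol, and its value is the median over its probes. In all, 34 members with 65 probes were found among 19533 named genes. For Gpi1, Pfkfb1 and Eno1 no probe was named, so they have no ratio here and enter only the promoter counts.

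Hearts of C57BL/6 mice were compared on 2-colour microarrays, with 6 groups of 8 animals described for the series. Mice given esmolol alone were set against untreated mice, LPS mice given esmolol against LPS mice, and CLP mice given esmolol against CLP mice. LPS is lipopolysaccharide injected into the peritoneal cavity, CLP is cecal ligature and perforation, which causes abdominal sepsis, and esmolol, a rapidly cleared beta-1 selective antagonist, was infused at 20 mg/kg/h through a jugular catheter. All groups share strain and organ, and neither age, sex nor the time between sepsis and sampling is given in the sources used here.

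Each contrast is 1 deposited ratio per probe that merges 4 replicates and their dye swaps. The values of single replicates were not analysed here, so no difference was tested and no p-value can be given. Ratios are read as log2 of hearts with esmolol over hearts without it, and "higher" and "lower" describe only the sign of that merged ratio. Base 2 is an assumption, and the direction follows the order of the sample titles. The title of the CLP contrast names the untreated hearts first, so its sign was turned. The design text describes treated against untreated hearts with no exception for CLP, so this direction is not settled, and every CLP direction given here reverses if the column does not follow its title. The one error in the table is the spread between probes of the same gene, pooled over all genes with several probes at 0.11 (non-septic), 0.24 (LPS) and 0.10 (CLP) log2 units. It covers neither animals nor hybridizations. A whole-heart ratio also cannot tell a change in the number of cells of a type from a change in RNA per cell.

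Glucose enters heart muscle through the facilitative transporters of the Slc2a family and is trapped by hexokinases. Phosphofructokinase then commits it to glycolysis, and the bifunctional PFKFB enzymes set the level of its strongest activator. The adult heart draws most of its energy from fatty acids and is a net user of lactate, whereas inflamed or oxygen-poor tissue raises Slc2a1, Hk2 and Pfkfb3, which are classic targets of hypoxia-inducible factor. Pyruvate enters oxidation through the pyruvate dehydrogenase complex, which the PDK kinases switch off and the phosphatase Pdp1 switches on. Beta-adrenergic signalling is known to stimulate glycogen breakdown and glucose use in the heart.

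Few members had large ratios. In LPS hearts Pfkfb3 (-1.03, 2.04-fold lower with esmolol) and Hk2 (-0.64, 1.56-fold lower) were the 2 of 34 members past 1.5-fold, which is 0.585 on the log2 scale. Slc2a1 (-0.54, 1.45-fold lower) lay just short of that limit, and the next lowest, Pgk1 (-0.30), well short of it. The highest member in LPS hearts was the lactate and pyruvate carrier Slc16a1 (0.41, 1.33-fold higher), which was also the lowest member in non-septic hearts (-0.36, 1.28-fold lower). In non-septic and in CLP hearts no member reached 1.5-fold in either direction.

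The members were read against all measured genes. In LPS hearts the 2 members lower by 1.5-fold or more were 5.88% of the list, against 2.26% of 17733 genes, and 0 were higher, against 2.06%. In non-septic hearts the background was 0.241% lower and 0.219% higher of 17814 genes, and in CLP hearts 0.133% lower and 0.819% higher of 17339 genes, so that counts of 0 among 34 members are near it. At a lower limit of 0.32 on the log2 scale, a ratio of 5 to 4, 3 members were lower and 1 was higher in LPS hearts. These are 8.82% and 2.94% of the members, set beside 10.4% and 10.9% of all genes. In non-septic hearts 2 members, Slc16a1 and Pgam1, were lower by this limit (5.88%, against 1.73% of all genes) and 0 were higher (against 1.27%). In CLP hearts 0 members were past it, where 1.13% of all genes were lower and 2.62% higher. The SD over members was 0.12 in non-septic, 0.26 in LPS and 0.091 in CLP hearts, and that over all genes 0.14, 0.28 and 0.16.

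**Figure D1:**
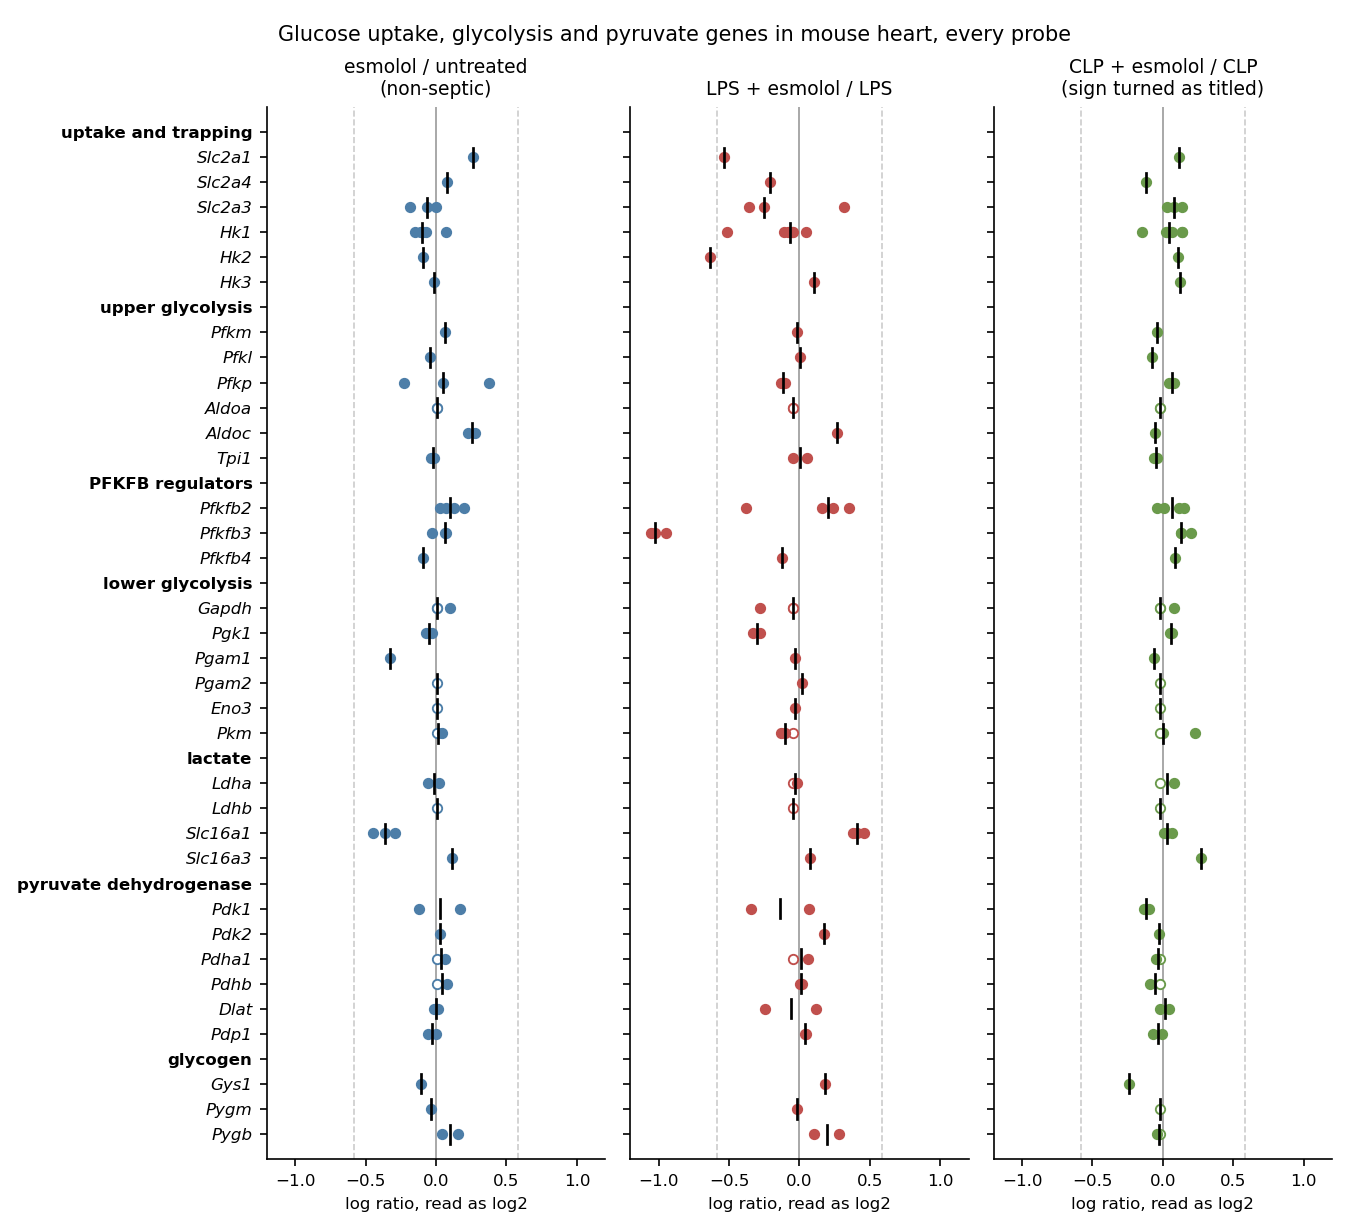
Log ratio, read as log2, of every probe of the 34 measured members in each contrast. Points are probes, open points lie on the value that recurs in that column, black bars are the median per gene and dashed lines mark 1.5-fold. The 3 Pfkfb3 probes lie together near -1 in LPS hearts and near 0 in the other contrasts, and the 3 Slc16a1 probes lie below 0 in non-septic hearts and above 0 in LPS hearts.

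Some of the most familiar glycolytic genes carry no usable ratio in this table. One exact value recurs in each column, at 359 probes in non-septic (0.0083), 526 in LPS (-0.043) and 538 in CLP hearts (-0.020), while the next most frequent value recurs at most 26 times. A value shared exactly by unrelated probes is not a gene's own ratio, and what produced it is not given in the sources used here. Of the members' probes, 10 of 65, 9 of 63 and 13 of 63 sat on it, 7 of them in all 3 contrasts. Every probe of Aldoa, the muscle aldolase, and of Ldhb, the heart-type lactate dehydrogenase subunit, was on it in each contrast. The muscle isoforms Pgam2 (phosphoglycerate mutase) and Eno3 (enolase) were on it in non-septic and CLP hearts, and Pygm (muscle glycogen phosphorylase) in CLP hearts. The median over all 34 members was this same value in non-septic (0.0083) and CLP hearts (-0.020) and was -0.029 in LPS hearts, against medians of 0.0010, -0.0049 and 0.0001 over all genes. Over the 30, 29 and 32 members with another value it was 0.012 (non-septic), 0.030 (CLP) and -0.016 (LPS), with 15, 13 and 18 of them below 0, so that the module as a whole had no common direction in any contrast.

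**Figure D2:**
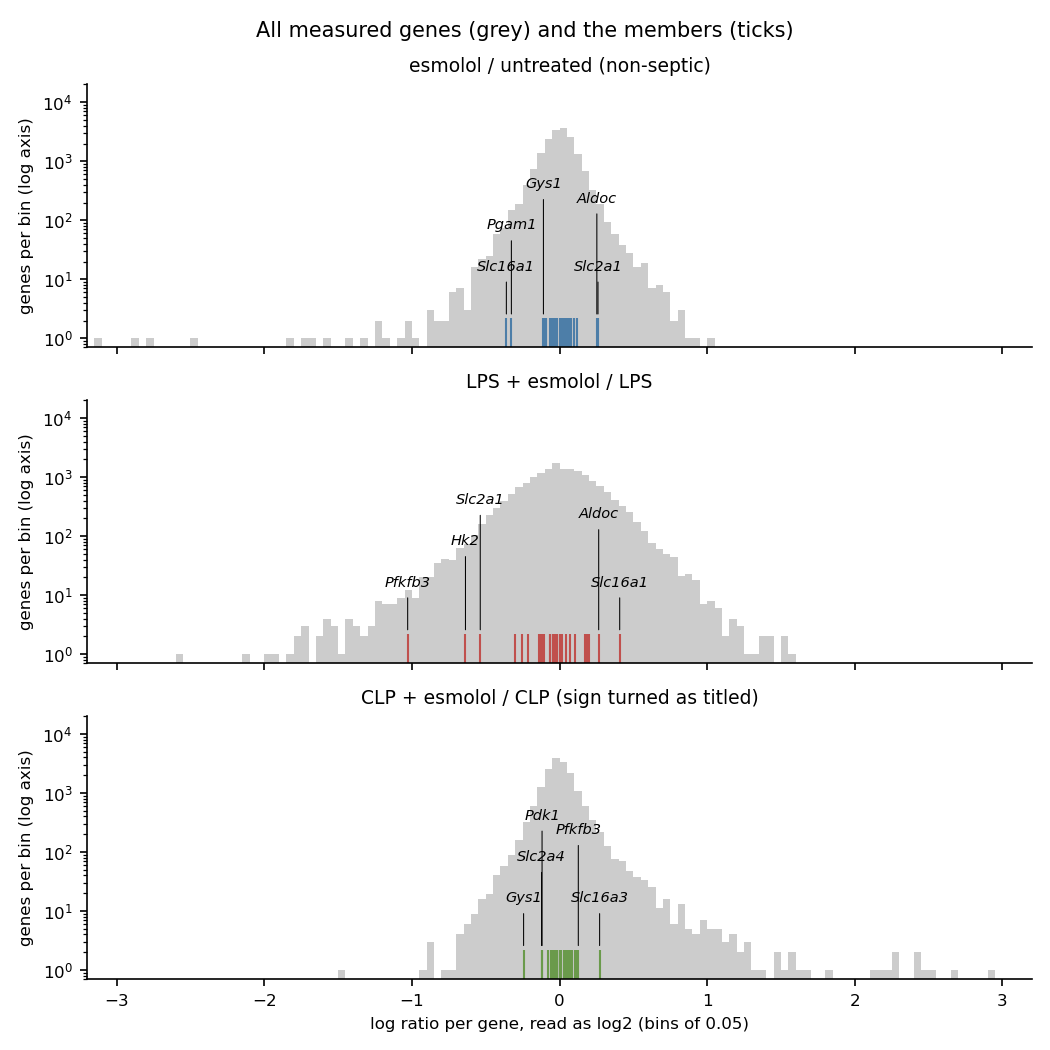
Number of genes per 0.05-wide bin of the log ratio, read as log2, on a log axis, for all measured genes (grey) and the 34 members (coloured ticks, the 3 lowest and 2 highest named). Most members lie in the middle of the distribution, and Pfkfb3, Hk2 and Slc2a1 lie in the lower tail of the LPS contrast.

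Uptake and trapping was the role with the lowest median in LPS hearts (-0.23), with 5 of 6 genes below 0. It had a median of -0.040 in non-septic and 0.092 in CLP hearts. Among the 5, Slc2a3 and Hk1 had LPS probes on both sides of 0, and Slc2a1, Slc2a4 and Hk2 had 1 probe each. The LPS median of the role lies between Slc2a4 (-0.21) and Slc2a3 (-0.25), so it rests in part on a gene whose probes did not agree. Slc2a1 encodes GLUT1, the transporter of basal uptake. Its single probe read 0.26 in non-septic, -0.54 in LPS and 0.12 in CLP hearts, which placed it 426th from the highest of 17814 genes in the first and 520th from the lowest of 17733 in the second. Slc2a4 encodes GLUT4, the insulin-responsive transporter of heart and skeletal muscle, and its probe read 0.080, -0.21 and -0.12. Both transporters were thus lower with esmolol in LPS hearts, by amounts on either side of 0.32 log2 units.

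Slc2a3, the high-affinity GLUT3 of neurons and blood cells, had 3 probes that did not agree in LPS hearts. They read -0.36, -0.25 and 0.31 there, a median of -0.25 ± 0.36 (SD between probes, n = 3 probes), so no direction can be given. In CLP hearts they lay between 0.030 and 0.14, and in non-septic hearts between -0.18 and -0.0035.

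Hk2, the inducible hexokinase of muscle, was lower in LPS hearts at its only probe (-0.64), the 321st lowest gene, and read -0.095 in non-septic and 0.10 in CLP hearts. With a single probe its LPS ratio has no check within the table. Hk1, the hexokinase of most tissues, had 6 probes with medians of -0.10 ± 0.075, -0.068 ± 0.20 and 0.046 ± 0.10 (SD between probes, n = 6 probes). One of them, A_52_P87141, lay apart from the others in each contrast. It read 0.070 where the others lay between -0.15 and -0.074 in non-septic hearts, -0.51 where they lay between -0.11 and 0.044 in LPS hearts, and -0.15 where they lay between 0.023 and 0.14 in CLP hearts. Hk3, a hexokinase of myeloid cells, read -0.015, 0.10 and 0.12.

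Pfkfb3 had the lowest ratio of any member. It encodes the PFKFB isoform with the greatest kinase over phosphatase activity, which drives glycolytic flux in activated immune, endothelial and tumour cells. In LPS hearts its 3 probes read -1.05, -1.03 and -0.95, a median of -1.03 ± 0.054 (SD between probes, n = 3 probes), and it was the 68th lowest of 17733 genes. All 3 lay beyond 1.5-fold, and their spread was under the pooled 0.24 of this contrast. In non-septic hearts the same probes read 0.064, 0.068 and -0.027, and in CLP hearts 0.12, 0.13 and 0.20. Pfkfb2, the heart isoform, whose kinase is activated by phosphorylation on adrenergic and insulin signals, had 4 probes. They lay above 0 in non-septic hearts (0.030 to 0.20, median 0.099), but in LPS hearts read 0.16, -0.38, 0.24 and 0.35, on both sides of 0, and in CLP hearts ran from -0.045 to 0.15. Pfkfb4 read -0.094, -0.13 and 0.087 at 1 probe. Within the family a ratio past 1.5-fold was found for Pfkfb3 alone, in LPS hearts, and the difference between isoforms was not tested.

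Agreement of several probes was rare at this size. Of 2545 genes with 3 or more probes in LPS hearts, 1.26% had every probe lower by 0.32 log2 units or more and 1.22% every probe higher. Among the 7 members with as many probes there, Pfkfb3 met the first condition and Slc16a1 the second. This rule was chosen after the values were seen. Of the 18 members with more than 1 probe in LPS hearts, 11 had all of them on the same side of 0, against 53.5% of all such genes.

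The phosphofructokinase and aldolase step showed small ratios. Pfkm, the muscle subunit of phosphofructokinase, read 0.067 in non-septic, -0.015 in LPS and -0.040 in CLP hearts. The liver subunit Pfkl read -0.041, 0.0024 and -0.079. The platelet subunit Pfkp had 3 probes in non-septic hearts at -0.23, 0.048 and 0.38, too far apart for a direction, and 2 elsewhere, with medians of -0.12 in LPS and 0.063 in CLP hearts. Aldoc, the brain-type aldolase, was higher at both probes in non-septic hearts (0.28 and 0.23), the 458th highest gene, and at its 1 measured probe in LPS hearts (0.27), and read -0.054 in CLP hearts. Tpi1, triosephosphate isomerase, stayed within 0.065 of 0 at every probe in every contrast.

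The steps after the aldolase and isomerase also held few ratios of any size. Pgk1, the first enzyme of the pathway to yield ATP, had 2 probes in LPS hearts at -0.33 and -0.28 (median -0.30 ± 0.035, SD between probes, n = 2 probes), and read -0.049 in non-septic and 0.056 in CLP hearts. Gapdh had 3 probes, 2 of them on the recurring value. Its remaining probe read 0.10 in non-septic, -0.28 in LPS and 0.078 in CLP hearts. Pgam1, the mutase of non-muscle tissues, was lower in non-septic hearts at its 1 probe (-0.33, the 294th lowest gene) and read -0.029 and -0.061 in LPS and CLP hearts. Pgam2 (0.015) and Eno3 (-0.030) were measured off the recurring value in LPS hearts alone. Pkm, pyruvate kinase, had medians of 0.012, -0.10 and 0.0018, with 1 of 3 probes on the recurring value and 1 at 0.23 in CLP hearts.

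Lactate handling gave the one member with ratios past 0.32 log2 units on opposite sides of 0, which was not counted over all genes. Slc16a1 encodes MCT1, the proton-linked carrier through which the heart takes up lactate. Its 3 probes read -0.29, -0.45 and -0.36 in non-septic hearts, 0.41, 0.46 and 0.38 in LPS hearts, and 0.011, 0.030 and 0.061 in CLP hearts. The medians were -0.36 ± 0.079, 0.41 ± 0.040 and 0.030 ± 0.026 (SD between probes, n = 3 probes each). It was the 215th lowest gene in non-septic and the 1159th highest in LPS hearts. Slc16a3, MCT4, the carrier of lactate export in glycolytic cells, was the highest member in CLP hearts (0.27, 1.21-fold higher at 1 probe) and read 0.11 and 0.072 in non-septic and LPS hearts. Ldha, the muscle-type lactate dehydrogenase subunit induced by hypoxia, had medians of -0.017, -0.029 and 0.030, with 1 of 2 probes on the recurring value in LPS and CLP hearts.

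Genes of pyruvate oxidation stayed near 0. The E1 subunits Pdha1 (0.034, 0.0083 and -0.034) and Pdhb (0.045, 0.012 and -0.056) and the E2 subunit Dlat (-0.0001, -0.063 and 0.011) had small ratios in non-septic, LPS and CLP hearts. Off the recurring value Pdha1 read 0.061, 0.060 and -0.047 and Pdhb 0.081, 0.012 and -0.092. The 2 Dlat probes fell on both sides of 0 in LPS hearts (-0.24 and 0.12). Of the inhibitory kinases, Pdk1, a hypoxia target, was below 0 at both probes in CLP hearts (-0.099 and -0.14) but split in LPS (0.065 and -0.35) and in non-septic hearts (0.17 and -0.12). Pdk2, the widely expressed isoform, read 0.029, 0.17 and -0.029, and the phosphatase Pdp1 -0.029, 0.041 and -0.038. Over the 6 genes the medians were 0.027, 0.010 and -0.036.

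Glycogen genes were near 0 or below in CLP hearts and 2 of 3 were above 0 in LPS hearts. Gys1, muscle glycogen synthase, was the lowest member in CLP hearts (-0.24 at 1 probe, 1.18-fold lower, 437th lowest of 17339 genes) and read -0.11 in non-septic and 0.18 in LPS hearts. Pygb, the brain-type phosphorylase, lay above 0 at both probes in non-septic (0.042 and 0.15) and LPS hearts (0.10 and 0.28), and at -0.042 in CLP hearts, with its other probe there on the recurring value. Pygm read -0.037 in non-septic and -0.017 in LPS hearts.

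The 300-base windows around the RefSeq starts of 5 members are shown because Pfkfb3, Hk2, Slc2a1 and Pgk1 were the lowest members in LPS hearts, while Slc16a1 was the highest. Each window runs from 250 bases before to 50 after the start, 5' to 3' on the strand of the gene, in build GRCm38.p6. Capitals mark ACGTG, the core letters of the hypoxia response element, or its reverse complement CACGT. Pfkfb3 has 2 annotated starts, at chr2:11553880-11554179 and chr2:11502041-11502340 on the minus strand. Hk2 lies at chr6:82774405-82774704 on the minus strand, and Slc2a1 at chr4:119108495-119108794, Pgk1 at chrX:106186850-106187149 and Slc16a1 at chr3:104638414-104638713 on the plus strand.
Pfkfb3 window 1: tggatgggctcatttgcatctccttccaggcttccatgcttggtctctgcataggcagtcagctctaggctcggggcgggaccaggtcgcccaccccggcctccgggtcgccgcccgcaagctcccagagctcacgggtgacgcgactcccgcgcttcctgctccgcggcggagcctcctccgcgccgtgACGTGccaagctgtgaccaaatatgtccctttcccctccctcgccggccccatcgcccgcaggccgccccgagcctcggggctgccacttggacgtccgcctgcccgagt
Pfkfb3 window 2: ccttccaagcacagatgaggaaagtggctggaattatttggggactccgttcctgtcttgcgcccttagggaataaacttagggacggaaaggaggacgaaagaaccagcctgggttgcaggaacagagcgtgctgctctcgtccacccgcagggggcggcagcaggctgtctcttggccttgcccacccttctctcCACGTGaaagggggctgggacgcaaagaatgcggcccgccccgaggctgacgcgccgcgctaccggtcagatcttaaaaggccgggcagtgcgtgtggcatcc
Hk2: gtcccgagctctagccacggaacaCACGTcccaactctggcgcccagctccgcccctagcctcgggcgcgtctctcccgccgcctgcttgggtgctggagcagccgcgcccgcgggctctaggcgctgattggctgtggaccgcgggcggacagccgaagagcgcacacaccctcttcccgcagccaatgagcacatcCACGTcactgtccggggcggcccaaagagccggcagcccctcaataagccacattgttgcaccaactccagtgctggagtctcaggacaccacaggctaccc
Slc2a1: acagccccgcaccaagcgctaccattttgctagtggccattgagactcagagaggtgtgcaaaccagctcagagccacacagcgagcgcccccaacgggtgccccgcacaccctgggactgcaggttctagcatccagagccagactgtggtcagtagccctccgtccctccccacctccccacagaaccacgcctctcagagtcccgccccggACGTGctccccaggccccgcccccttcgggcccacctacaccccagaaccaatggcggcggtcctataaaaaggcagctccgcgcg
Pgk1: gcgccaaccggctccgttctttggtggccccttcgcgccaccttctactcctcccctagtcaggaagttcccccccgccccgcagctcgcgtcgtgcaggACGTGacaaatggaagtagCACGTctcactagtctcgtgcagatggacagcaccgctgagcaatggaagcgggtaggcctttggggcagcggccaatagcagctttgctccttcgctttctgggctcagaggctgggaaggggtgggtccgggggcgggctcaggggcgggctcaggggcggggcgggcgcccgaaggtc
Slc16a1: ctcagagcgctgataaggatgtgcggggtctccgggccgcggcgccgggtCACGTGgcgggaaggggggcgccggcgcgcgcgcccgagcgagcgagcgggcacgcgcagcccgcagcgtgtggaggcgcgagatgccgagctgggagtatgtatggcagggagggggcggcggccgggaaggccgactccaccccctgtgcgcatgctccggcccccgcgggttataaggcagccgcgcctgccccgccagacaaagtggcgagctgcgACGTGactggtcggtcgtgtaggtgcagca

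All of these windows held ACGTG on at least 1 strand, whether the gene was lower or higher with esmolol in LPS hearts. The motif was found in a window of 20 of the 34 listed members that have an entry in the promoter table (58.8%), and in 24 of their 53 windows (45.3%). These 34 are not the 34 measured members. They include Gpi1, Pfkfb1 and Eno1, which have no probe, and lack Slc2a4, Slc2a3 and Pdp1, which have no promoter entry. Counted by gene, 21.8% of all 27025 genes and 23.2% of 17492 protein-coding genes had it in a window. Of all 32851 windows of the same length 19.6% held it, as did 20.9% of the 21263 windows of protein-coding genes. The related core GCGTG was in 52.8% of the members' windows, 32.4% of all windows and 38.5% of those of protein-coding genes. The palindrome CACGTG, the E-box that contains ACGTG on both strands, was in 11.3% of the members' windows. It was in 7.2% of all windows and 7.8% of those of protein-coding genes. The second Pfkfb3 window and that of Slc16a1 held it. Pfkm, with ratios near 0 in each contrast, held ACGTG as well. A match to these letters describes the sequence and is neither a binding site nor a cause.

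Genes of the same pathways outside the list were given by lists written for this report. Of 16, 14 and 16 other glucose and pyruvate genes measured in non-septic, LPS and CLP hearts, 0 were past 1.5-fold in any contrast. In LPS hearts the lowest were Bpgm, the red cell mutase that makes bisphosphoglycerate (-0.55), and Eno2, the neuronal enolase (-0.48), and the highest was pyruvate carboxylase, Pcx (0.41). In non-septic hearts they ran from Tigar, a bisphosphatase that restrains glycolysis (-0.20), to Pdk4, the pyruvate dehydrogenase kinase raised by fasting and glucocorticoid (0.38). In CLP hearts they ran from the transporter Slc2a12 (-0.38) to Pdk3 (0.42 ± 0.044, SD between probes, n = 2 probes). Tigar's 3 probes lay above 0 in LPS hearts (median 0.22 ± 0.090) and below 0 in non-septic hearts (median -0.20 ± 0.032).

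Of 11 other glycogen genes 1 was past 1.5-fold, Gbe1, the branching enzyme, in LPS hearts (-0.83 at 1 probe), and 8 of the 11 were below 0 there. The glycogen-targeting subunit Ppp1r3c read -0.18 in non-septic, -0.25 in LPS and 0.35 in CLP hearts. Ppp1r3a, the targeting subunit of striated muscle, was highest of this list in non-septic hearts (0.24), Stbd1, a glycogen-binding protein, in LPS hearts (0.17), and Phka1, a phosphorylase kinase subunit, lowest in CLP hearts (-0.29). The 6 measured pentose phosphate genes stayed between -0.15 and 0.19 in all contrasts, from Rpia (-0.15) to Pgd (0.012) in non-septic, Tkt (-0.15) to Rpe (0.12) in LPS and Tkt (-0.0086) to Pgd (0.19) in CLP hearts.

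Among 9 genes that link insulin to glucose transport, 0 were past 1.5-fold. Txnip, a glucose-induced inhibitor of glucose uptake, was the highest in non-septic hearts (0.54 ± 0.0053, SD between probes, n = 2 probes) and sat on the recurring value in the other contrasts. Irs1 was lowest there (-0.27). Insr, the insulin receptor, was highest in LPS hearts (0.58 ± 0.11, n = 2 probes). Pik3r1, a regulatory subunit of PI 3-kinase, was higher at all 4 probes in non-septic (0.44 ± 0.032) and LPS hearts (0.53 ± 0.034) and read -0.086 in CLP hearts. Tbc1d1, which restrains GLUT4 traffic, was lowest in LPS (-0.47 ± 0.63, n = 2 probes) and highest in CLP hearts (0.58 ± 0.35, n = 2 probes), in both with a wide spread between its probes. Pdpk1 was lowest in CLP hearts (-0.18).

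Fatty acid oxidation, the other main fuel route of the heart, was set beside the members. Its 14 measured genes had medians of 0.019 in non-septic, 0.073 in LPS and -0.11 in CLP hearts, with 14 of 14 below 0 in CLP hearts, where the 3 highest (Cd36, Acadm and Hadhb) sat on the recurring value. They ran from Cpt1b (-0.071) to Hadha (0.16) in non-septic and from Acadvl (-0.19) to Hadha (0.44) in LPS hearts, and the lowest in CLP hearts was Ucp3 (-0.23). Off that value the medians were 0.036, 0.21 and -0.14, where the members had 0.012, -0.016 and 0.030. In CLP hearts 13 of 29 members off the recurring value and 52.1% of all genes lay below 0. No test was possible on the difference between the 2 groups of genes.

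**Figure D3:**
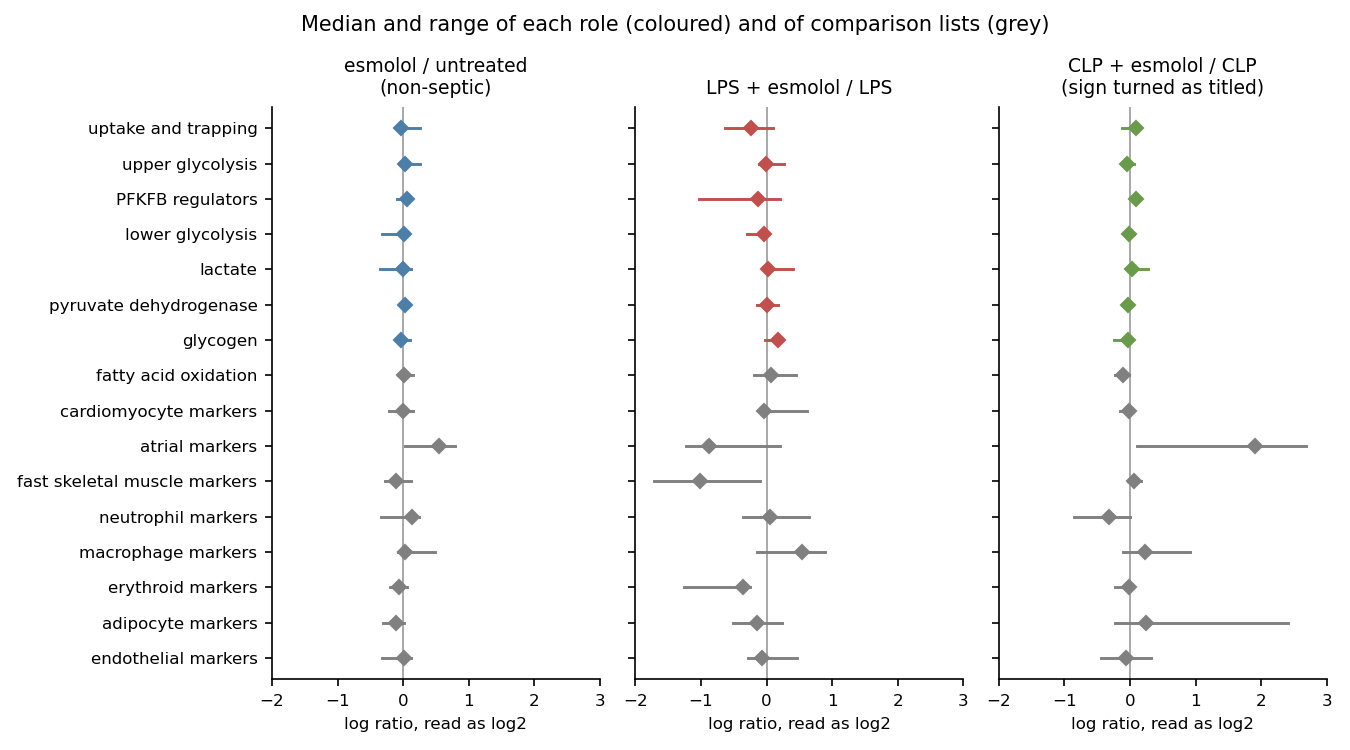
Median (diamonds) and range from lowest to highest gene (lines) of the log ratio, read as log2, for each role of the members (coloured), for fatty acid oxidation genes and for cell type markers (grey). Role medians stay between -0.23 and 0.18, while atrial markers have medians of 0.54, -0.88 and 1.90 and fast skeletal muscle markers one of -1.01 in LPS hearts.

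Markers of several other cell types had larger ratios than most members. The medians of 6 atrial markers were 0.54 in non-septic, -0.88 in LPS and 1.90 in CLP hearts, with 3 higher, 4 lower and 5 higher by 1.5-fold. Of the 29 members measured off the recurring value in every contrast, 5 (Slc2a1, Pfkp, Pfkfb3, Gapdh and Pkm) had the same order of signs. They were above 0 in non-septic and CLP hearts and below 0 in LPS hearts, as were 10.7% of 16736 genes. The probes of Pfkp and Pfkfb3 lay on both sides of 0 in non-septic hearts, so their place among the 5 is not settled. More members, 7 of 29, were below 0 in non-septic and LPS hearts and above 0 in CLP hearts, as were 14.3% of all genes. They were Slc2a3, Hk1, Hk2, Pfkfb4, Pgk1, Ldha and Dlat. The probes of Slc2a3, Hk1, Ldha and Dlat lay on both sides of 0 in 1 contrast or more, so their place among the 7 is not settled either. By gene median all 9 fast skeletal muscle markers were below 0 in LPS hearts (-1.72 to -0.11, median -1.01), 6 of them by 1.5-fold or more. They lay between -0.27 and 0.17 in the other contrasts (medians -0.10 in non-septic and 0.055 in CLP hearts). Off the recurring value their LPS median was -1.12, and Myh4 and Atp2a1 each had 1 of 2 LPS probes on that value. The spread between LPS probes exceeded the value for Tnnt3 (-0.55 ± 1.27, n = 2 probes) and Myh2 (-0.11 ± 0.57, n = 3 probes). It also did so for Myh4 (-1.01 ± 1.37, n = 2 probes) and Atp2a1 (-1.48 ± 2.04, n = 2 probes). Both are among the 6 past 1.5-fold, and the list median of -1.01 is the value of Myh4. No direction can be given for Tnnt3 and Myh2 in LPS hearts, and those of Myh4 and Atp2a1 rest on 1 probe each. Of the members named above for muscle, Hk2 (-0.64), Slc2a4 (-0.21), Eno3 (-0.030), Pygm (-0.017) and Pfkm (-0.015) were below 0 in that contrast and Pgam2 (0.015) and Gys1 (0.18) above it, with Aldoa on the recurring value and Ldha at -0.029. Macrophage markers had a median of 0.54 in LPS hearts (7 measured, -0.14 to 0.89), 0.22 in CLP and 0.021 in non-septic hearts. Neutrophil markers, 7 of 7 below 0 in CLP hearts, had a median of -0.32 there, 0.14 in non-septic and 0.057 in LPS hearts. Erythroid markers were below 0 in LPS hearts (3 of 3, median -0.36), where Bpgm was also low. Their medians were -0.059 in non-septic and -0.020 in CLP hearts, the latter being the recurring value (-0.12 off it). Medians of the adipocyte (-0.11, -0.15 and 0.24) and endothelial lists (0.0074, -0.075 and -0.067) stayed within 0.24 of 0. In CLP hearts 4 of 6 adipocyte genes were above 0 and 2 below. They were the brown fat gene Ucp1 (2.40), Adipoq (0.89), Retn (0.44), Plin1 (0.043), Fabp4 (-0.020, with 2 of 3 probes on the recurring value) and Cidea (-0.23). Whether these cells had a part in the ratios of Pfkfb3, Hk2, Slc2a1 or Slc16a1 was not tested. Of 8 cardiomyocyte markers (medians 0.0001, -0.043 and -0.020) 4 sat wholly on the recurring value in LPS and 4 in CLP hearts. The LPS and CLP medians are that value itself, and off it the medians were -0.0081, 0.030 and -0.053. Tnnt2 was past 1.5-fold in LPS hearts (0.62 ± 0.94, n = 2 probes), with 1 of its 2 probes on the recurring value. The table holds ratios and no levels, so the tissue label could not be checked against expression.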

How the data were processed

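Total RNA from 30 mg of heart was labelled and hybridized on 2-colour arrays, per the labels' protocols. The authors deposited 1 merged log ratio per probe and contrast, read here as log2, each from 4 replicates with dye swaps per the labels' descriptions. The sources used here do not state scanner, background correction, normalization, filters, log base or genome build. Of 41174 probes, 35261 had a value in non-septic, 34933 in LPS and 33501 in CLP hearts, and depth is not defined for arrays, whose number limits the precision. Probes were named from the platform annotation with symbols updated through RefSeq (32664 with 1 gene, 45 with several and left out, 8465 unnamed). Of the members, 34 matched a probe and 34 a RefSeq promoter entry, and the genes of these 2 sets differ in part. Python 3.11.15 with pandas 2.3.3 collapsed probes by their median, turned the CLP sign and counted genes past 1.5-fold. The counting was tested on simulated data. No test between groups was possible. Members, lists, thresholds and alternatives were chosen with earlier results of these data known. All members are named, with genes of the other pathway lists where past 1.5-fold or highest or lowest in their list and contrast. Eno2, Pik3r1 and the single marker genes named, the adipocyte marker Ucp1 among them, were chosen after their values were seen.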

Additional observations from a re-analysis of the deposited data

Results flagged for a closer look

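Slc16a1 differed between contrasts by 0.77 log2 units, at 0.41 in LPS hearts and -0.36 in non-septic hearts, with every one of its 3 probes above 0 in the first and below 0 in the second. Both medians were past 0.32 log2 units, and no other member met this rule in any pair of contrasts. How many of all genes meet the rule was not counted, so it does not show that Slc16a1 is unusual. At that limit alone, 10.9% of all genes were higher in LPS hearts and 1.73% lower in non-septic hearts. The difference was not tested, since each contrast is a single merged ratio.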

How the results depend on the processing

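At a limit of 0.32 log2 units in place of 1.5-fold, the members counted were 2 in non-septic and 4 in LPS hearts, against 0 and 2. Had the ratios been base 10 logarithms, 4 members in non-septic, 11 in LPS and 2 in CLP hearts would pass 1.5-fold, and with natural logarithms 4 in LPS hearts. The median over the members in CLP hearts was 0.030 without the recurring value and 0.020 with the sign as deposited, against -0.020. The other 39 of 47 recalculated counts and medians stayed within 1.5 times the count or within the pooled SD between probes divided by the square root of the number of members. These covered mean in place of median, the probe with the largest ratio, centring on all genes, members measured in all contrasts and members with probes on the same side of 0. All 34 members were measured in each contrast, so that setting repeats the main result and is no check. Centring shifts values only by the median of all genes (0.0010 in non-septic, 0.0001 in LPS and -0.0049 in CLP hearts), so it could move little. Of 113 recalculated single-gene values, 5 moved by more than the SD between probes, all in CLP hearts with the sign as deposited. Of the ratios past 1.5-fold, those of Pfkfb3 and Hk2 in LPS hearts, 0 changed sign. Every probe of these genes was lower by more than 1.5-fold there and the LPS sign was not turned. No setting could therefore have changed their sign. Slc2a1, Hk2 and Pgam1 had 1 probe each, off the recurring value, so only centring and the CLP sign could move them. Their unchanged values, that of Hk2 past 1.5-fold among them, are therefore no check on those ratios. No paired analysis was possible because each contrast is 1 merged value.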
